A study of Mus musculus with 9 samples.

Results

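Oxidative phosphorylation is encoded by 2 genomes, and transcripts from both were counted here in mouse T cell lymphoma and in CD4 T cells. The genes are the rows of the count table whose symbols begin as those of the respiratory chain and ATP synthase do: Ndufa, Ndufb, Ndufc, Ndufs or Ndufv for complex I, Sdha to Sdhd for complex II, Uqcr for complex III, Cox4 to Cox8 for complex IV and Atp5 for ATP synthase (complex V), together with the protein-coding genes of the mitochondrial genome (mt-Nd, mt-Cytb, mt-Co and mt-Atp). This gave 106 of 46078 genes, 93 of them nuclear and 13 mitochondrial, and 4 rows named as pseudogenes (-ps) were left out. Of the 93 nuclear genes, 86 were grouped into complexes I to V by name and 7 were complex I assembly factors (Ndufaf1 to Ndufaf7). The names do not settle every role: Ndufa4 was named for complex I but has since been assigned to complex IV, and Atp5s and Atp5sl carry ATP synthase names without being core subunits.

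The lymphoma group holds 6 libraries (numbered 34, 53, 56, 70, 72 and 86) of MYCN-induced T cell lymphoma cells from the thymus of C57BL/6J mice. The control group holds 3 libraries (numbered 1, 2 and 3) of CD4+ T cells from the spleen of the same strain. The labels give neither the promoter that drives MYCN, nor ages, nor whether each library is a separate animal, so p-values measure the spread between these libraries. Tissue and group coincide, so thymus against spleen and tumour against control cannot be told apart.

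The mitochondrial respiratory chain passes electrons from NADH (through complex I) and from succinate (through complex II) to ubiquinone, then through complex III and cytochrome c to complex IV, where oxygen is reduced to water. Complexes I, III and IV pump protons out of the matrix, and ATP synthase uses the returning protons to make ATP. Complex II is wholly nuclear-encoded, while the other 4 mix nuclear subunits with mitochondrial ones, so the 2 genomes have to be expressed together. Resting T cells keep a small mitochondrial mass, which grows when they are activated and divide.

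Libraries held 11170704 to 15769679 counts in genes in lymphoma and 8099960 to 10808828 in CD4. The share of reads assigned to a gene was 44.0% ± 3.29 (SD, n = 6) for the lymphomas and 31.1% ± 3.69 (SD, n = 3) for the controls. The reads were taken at transcript 3′ ends, so levels are given as counts per 1000000 of the scaled library size (CPM) and are compared between libraries for the same gene or the same sum of genes, not between genes. A gene counts as changed (rose, higher, lower) where edgeR's quasi-likelihood test gave a Benjamini-Hochberg adjusted p under 0.05 over all 15401 genes tested. T cell transcripts were present in both groups, with Cd3e at 150 to 217 CPM in lymphoma and 138 to 192 CPM in CD4. Of 14 T cell markers tested, 4 were lower in lymphoma, among them Cd4 itself at 6.04 to 71.9 CPM against 199 to 263 CPM. Beside this and the next marker counts, 24.7% of all tested genes were higher in lymphoma and 21.9% lower. Whether a marker list differs from these shares was not tested. The 15 B cell markers examined were all lower in lymphoma, with summed levels of 258.5 to 424.5 CPM against 2685 to 3285 CPM in CD4, and no B cell marker was at 0 throughout either group. Ighm, the immunoglobulin mu chain, made up most of the lymphoma sum at 242 to 404 CPM. The CD4 libraries thus held B cell transcripts as well as T cell ones. Ms4a1 was at 186 to 231 CPM in CD4 and at most 2.38 CPM in lymphoma. Pax5 was at 119 to 122 CPM in CD4 and at most 1.66 CPM in lymphoma. Of 13 myeloid markers 6 were lower in lymphoma, with summed levels of 183.4 to 2261 CPM in lymphoma and 963.1 to 1228 CPM in CD4. Of 9 erythroid markers tested, 1 was higher in lymphoma, Hemgn at 10.7 to 43.7 CPM against 0 to 0.763 CPM, and the list summed to 24.74 to 903.8 CPM against 100.6 to 360.2 CPM. Of 7 stromal and thymic epithelial markers tested, 2 were higher in lymphoma (Epcam at 7.0 to 50.7 CPM against 1.05 to 1.93 CPM, and Dcn at 1.71 to 7.36 CPM against 0 in every CD4 library) and 2 were lower (Pecam1 and Kdr). That list summed to 97.75 to 180.8 CPM in lymphoma and 220.7 to 240.6 CPM in CD4, with Krt5, Krt8 and Foxn1 at 0 in every CD4 library and Cdh5 at 0 in every lymphoma. The Y-linked gene Ddx3y was at 119 to 178 CPM in every lymphoma and 0.191 to 0.734 CPM in every CD4 library, and Xist showed the opposite, so sex also coincides with group by these genes. Of the tested nuclear genes, 3 lie on the X chromosome (Ndufa1, Ndufb11 and Cox7b). The row of the mouse Mycn gene, which need not count a transgene, had 0 to 3 counts in the lymphomas and 0 to 6 in CD4 and checks no label. The part of cells of these other types, of sex and of tissue in the differences below was not tested.

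The nuclear genes were higher in lymphoma across all 5 complexes, while a single mitochondrial gene passed the test. Of the 93 nuclear genes, 87 passed the filter on low counts and were tested, and 73 of the 87 rose (83.9%), where 24.7% of all tested genes rose and 46.6% changed in either direction. Among the 5376 tested genes with an average log2 CPM of at least 5, 39.1% rose and 22.4% fell. None of the 87 fell by edgeR's test, where 21.9% of all tested genes fell. At an unadjusted p under 0.05, 78 were higher and 1 lower (Atp5sl), DESeq2 called 74 higher and 1 lower (Atp5sl), and limma voom called 71 higher and 1 lower (Cox6a2). The median log2 fold change of the 87 was 1.23, which is 2.34-fold, against 0.04 for all tested genes and 0.26 for those with an average log2 CPM of at least 5. In 64 of the 87, all 6 lymphomas lay above all 3 CD4 libraries, which 22.6% of all tested genes did.

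All 13 mitochondrial genes were tested and 1 rose, mt-Nd3, with none lower. The same 1 and 0 were counted at an unadjusted p under 0.05, by DESeq2 and by limma voom. Their median log2 fold change was 0.02, which is 1.01-fold, with a range from -0.34 (mt-Co1) to 0.40 (mt-Nd3), so each lies below the nuclear median. mt-Nd3 was also the only 1 of the 13 in which all lymphomas lay above all CD4 libraries. The set of nuclear genes against the set of mitochondrial genes was compared as a description, with no p.

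**Figure D1:**
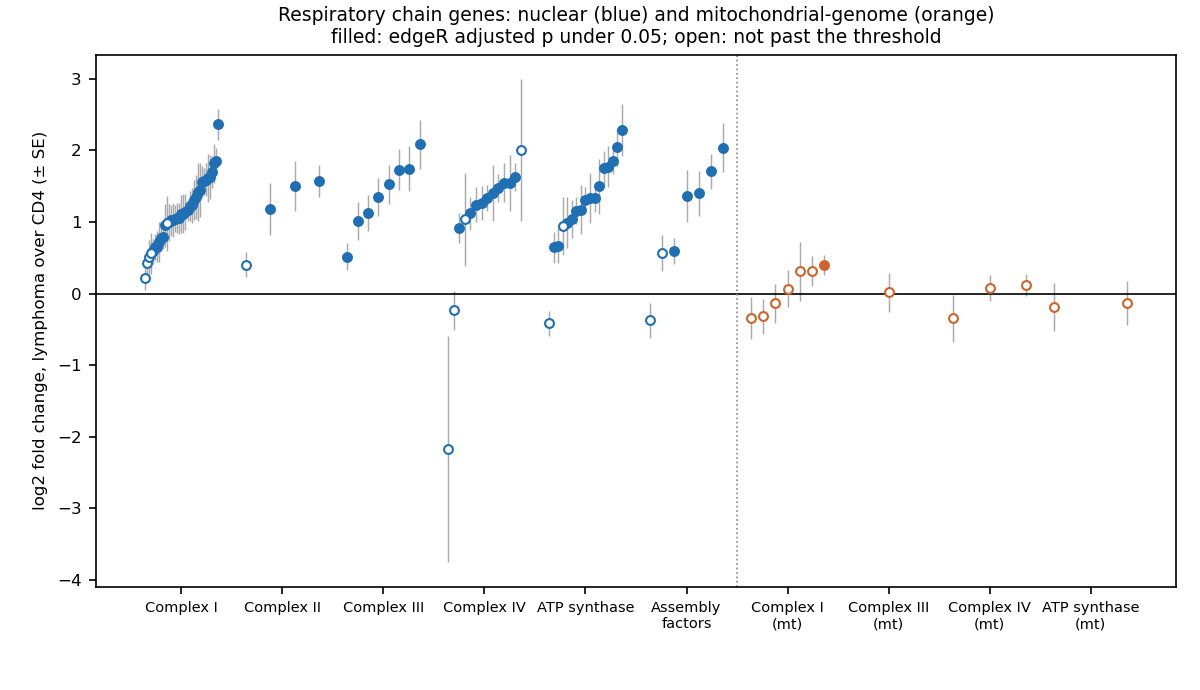
Log2 fold change (lymphoma over CD4) of each tested gene by complex and genome, with its SE as a vertical line. Filled points passed the test. Nuclear medians lie between 1.11 and 1.44 in every complex, while the mitochondrial genes all lie between -0.34 and 0.40.

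Summed over the nuclear genes, the level was 16395, 23378, 18755, 16427, 14906 and 22566 CPM in lymphomas 34, 53, 56, 70, 72 and 86. It was 9102, 6635 and 7757 CPM in CD4 1, 2 and 3. The groups did not overlap, with means of 18738 ± 3513 CPM (SD, n = 6) and 7831 ± 1236 CPM (SD, n = 3), a ratio of 2.39. In bulk samples, a larger share of cells with these transcripts and more of them per cell cannot be told apart.

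Summed over the 13 mitochondrial genes, the level was 70329, 41188, 86288, 54616, 69258 and 81073 CPM in the same 6 lymphomas and 71974, 75772 and 51030 CPM in CD4 1, 2 and 3. The groups overlapped, with means of 67125 ± 16768 CPM and 66259 ± 13324 CPM. Lymphoma 53 was the lowest of all 9 libraries and lymphoma 56 the highest.

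The mitochondrial sum divided by the nuclear sum was lower in every lymphoma than in any CD4 library. The ratio was 4.29, 1.76, 4.6, 3.33, 4.65 and 3.59 in lymphomas 34, 53, 56, 70, 72 and 86. It was 7.91, 11.4 and 6.58 in CD4 1, 2 and 3. The means were 3.70 ± 1.09 (SD, n = 6) and 8.64 ± 2.5 (SD, n = 3), and the lymphoma mean without library 53 was 4.09. The ratio of lymphoma to CD4 means was 0.48 for complex I, 0.46 for complex III, 0.41 for complex IV and 0.34 for ATP synthase, and in none of these 4 did the groups overlap. A ratio within a library shows unequal change of the 2 genomes' transcripts and does not say that either stood still.

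**Figure D2:**
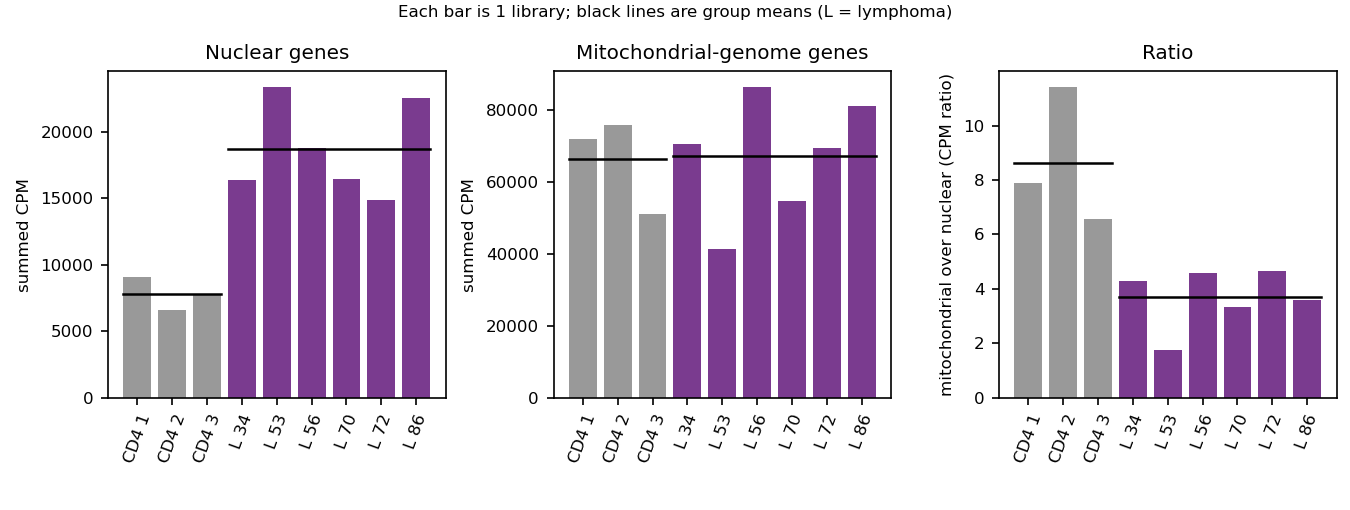
Summed CPM of the nuclear and of the mitochondrial genes and their ratio in each of the 9 libraries, with group means. All 6 lymphomas lie above the 3 CD4 libraries for the nuclear sum and below them for the ratio, while the mitochondrial sums overlap.

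Complex I is the entry point for electrons from NADH and the largest of the complexes. Of its 38 nuclear genes 37 were tested, and 32 rose with a median log2 fold change of 1.11. The summed level of the complex was 2.17-fold higher in lymphoma.

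The largest rises in complex I were in Ndufc2 and Ndufc1, small accessory subunits of the membrane arm. Ndufc2 was at 285 CPM in the lowest lymphoma, 307 at the median and 409 in the highest, and at 83.6, 46.9 and 58.9 CPM in CD4 1, 2 and 3. Every lymphoma lay above the highest CD4 library, and the log2 fold change was 2.36 (SE 0.220, adjusted p = 7.00e-06). Ndufc1 was at 133, 166 and 188 CPM in the lowest, median and highest lymphoma and 51.0, 41.9 and 44.5 CPM in CD4, which gave a log2 fold change of 1.85 (SE 0.178, adjusted p = 8.92e-06).

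Ndufv1, Ndufv2 and Ndufs1 are core subunits on the electron path from NADH. Ndufv1, which binds NADH and the flavin, was at 101, 131 (median) and 174 CPM in lymphoma and 38.4, 46.9 and 39.1 CPM in CD4, a log2 fold change of 1.70 (SE 0.218, adjusted p = 7.01e-05). Its partner Ndufv2 had closely spaced CD4 values, at 80.9, 81.7 and 80.8 CPM, against 161 to 223 CPM in lymphoma. Ndufs1, the largest core subunit, was at 94.7 to 116 CPM in lymphoma and 62.6, 90.0 and 81.0 CPM in CD4. The groups of Ndufs1 did not overlap, but its log2 fold change of 0.42 (SE 0.164) missed the threshold at an adjusted p of 0.0515. The other 4 complex I genes that missed it were Ndufa1, Ndufa3, Ndufa6 and Ndufs5, with log2 fold changes from 0.22 (Ndufa6) to 0.98 (Ndufs5) and adjusted p from 0.0511 to 0.327.

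Complex II, succinate dehydrogenase, is also an enzyme of the tricarboxylic acid cycle, and its 4 subunits moved by different amounts. Sdhb, the iron-sulfur subunit, was at 223, 292 and 383 CPM in the lowest, median and highest lymphoma and at 123, 87.8 and 85.3 CPM in CD4. Its groups were far apart, with a log2 fold change of 1.57 (SE 0.225, adjusted p = 0.000156). Sdhd, a membrane anchor, was at 25.8, 29.1 and 47.0 CPM in lymphoma and 14.0, 4.80 and 14.4 CPM in CD4, a log2 fold change of 1.51 (SE 0.348, adjusted p = 0.00388).

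Sdhc, the other anchor, was at 53.6, 92.5 and 136 CPM in lymphoma and 65.8, 20.0 and 35.4 CPM in CD4. Lymphoma 53 lay below CD4 1, and the log2 fold change of 1.18 (SE 0.361, adjusted p = 0.0187) lost its call without CD4 2 (0.87, adjusted p = 0.0730) and without CD4 3 (1.11, adjusted p = 0.0744). Sdha, the flavoprotein that oxidises succinate, was at 203, 214 and 290 CPM in lymphoma and 187, 192 and 135 CPM in CD4. All lymphomas of Sdha lay above all CD4 libraries, but its log2 fold change of 0.40 (SE 0.174) had an adjusted p of 0.0772.

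Complex III moves electrons from ubiquinol to cytochrome c. All 8 tested genes rose, with a median log2 fold change of 1.44, and the ninth row, an additional Uqcrc1 entry, had 0 counts in every library. The largest rise was in Uqcr10, a small subunit, at 241, 337 and 769 CPM in the lowest, median and highest lymphoma and 104, 88.9 and 90.3 CPM in CD4 (log2 fold change 2.08, SE 0.346, adjusted p = 0.000492). Uqcrq, another small subunit, was at 202, 289 and 602 CPM in lymphoma and 107, 94.4 and 97.3 CPM in CD4, a log2 fold change of 1.74 (SE 0.315, adjusted p = 0.000827). In both genes the highest value was in lymphoma 53, and no lymphoma overlapped CD4. The smallest rise was in Uqcrh, the hinge protein, at 411, 510 and 743 CPM in lymphoma and 413, 316 and 387 CPM in CD4, where the lowest lymphoma lay at the level of the highest CD4 library (log2 fold change 0.52, SE 0.188, adjusted p = 0.0400). The Rieske protein Uqcrfs1 and the core proteins Uqcrc1 and Uqcrc2 rose with log2 fold changes of 1.35, 1.52 and 1.12.

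Complex IV, cytochrome c oxidase, has nuclear subunits that exist in forms for different tissues. Of 18 genes, 14 were tested and 10 rose, with a median log2 fold change of 1.31. Cox4i2, Cox7b2, Cox8b and Cox8c had 0 counts in all 9 libraries, which allows a level of up to 0.184 to 0.274 CPM in the lymphomas and 0.275 to 0.360 CPM in CD4 (3 counts per library, counting error only). The ubiquitous forms rose: Cox4i1, Cox6a1, Cox6b1, Cox7a2 and Cox8a had log2 fold changes of 1.24, 1.27, 1.12, 1.63 and 1.40. The call of Cox8a was lost without CD4 2 (1.21, adjusted p = 0.0627) and without CD4 3 (adjusted p = 0.0610). Cox7a2 was at 357, 434 and 518 CPM in the lowest, median and highest lymphoma and 164, 112 and 144 CPM in CD4 (SE 0.192, adjusted p = 3.79e-05), with no overlap. Cox5a, which rose by 1.55 (SE 0.392, adjusted p = 0.00676), did overlap, at 20.2 to 62.7 CPM in lymphoma and 20.4, 9.12 and 8.17 CPM in CD4, because lymphoma 53 lay just below CD4 1.

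The remaining forms of complex IV did not pass the test. Cox6a2, the heart and muscle form, was at 0, 16.4, 0.218, 0.0612, 0.131 and 0.433 CPM in lymphomas 34, 53, 56, 70, 72 and 86 and 15, 9.0 and 14.3 CPM in CD4. In raw counts this was 0, 180, 3, 1, 2 and 6 against 157, 75 and 156. Lymphoma 53 lay above every CD4 library and the other 5 far below. The log2 fold change of Cox6a2 was -2.17 (SE 1.58, adjusted p = 0.293) over all lymphomas and -6.21 without lymphoma 53 (adjusted p = 1.10e-05). Cox7a2l, which takes part in the assembly of complexes into supercomplexes, was at 86.7, 140, 72.7, 73.1, 56.4 and 57.1 CPM in lymphomas 34 to 86 in the order above and 86.2, 86.5 and 113 CPM in CD4. Its log2 fold change was -0.23 (SE 0.270, adjusted p = 0.510), and without lymphoma 53 it was -0.46 with an adjusted p of 0.0394. Cox6b2, the testis form, was at 3.20 to 18.8 CPM in lymphoma and 0, 3.96 and 1.28 CPM in CD4 (log2 fold change 2.0, SE 0.993, adjusted p = 0.121), and without CD4 2 its adjusted p was 0.049. Cox7a1, a muscle form, was at 1.46 to 8.22 CPM in lymphoma and 1.24, 1.08 and 2.39 CPM in CD4 (log2 fold change 1.04, adjusted p = 0.216).

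**Figure D3:**
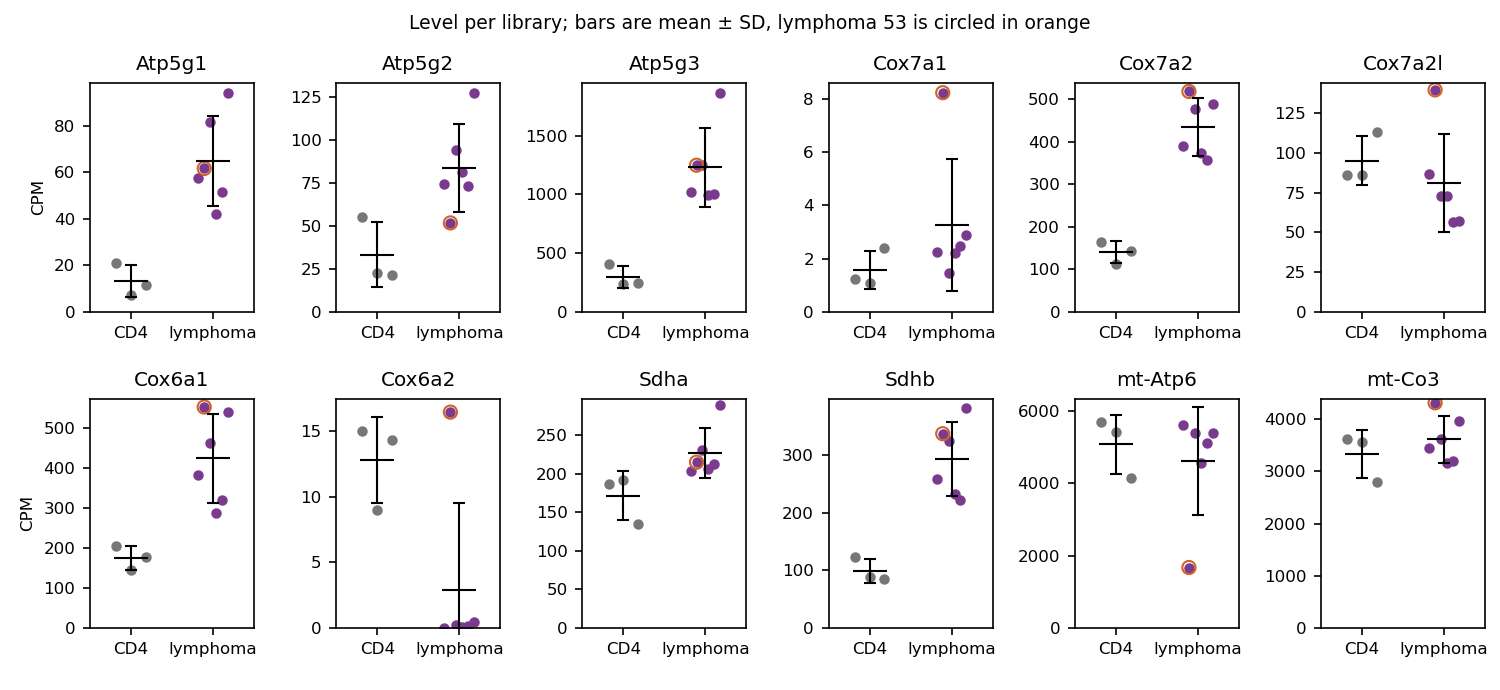
CPM in each library (points) for 12 subunits, with mean ± SD per group and lymphoma 53 circled. Cox6a2 is near 0 in 5 lymphomas and at 16.4 CPM in lymphoma 53, while Sdhb, Cox6a1 and Atp5g3 are above CD4 in all 6.

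ATP synthase had the largest summed rise, 2.75-fold, with 15 of 17 genes higher and a median log2 fold change of 1.31. All 5 genes of the F1 head and central stalk rose (Atp5a1, Atp5b, Atp5c1, Atp5d and Atp5e), with a median of 1.31. Atp5b, the catalytic beta subunit, was at 754, 896 and 1135 CPM in the lowest, median and highest lymphoma and at 298, 214 and 255 CPM in CD4. No libraries overlapped, and the log2 fold change was 1.85 (SE 0.181, adjusted p = 1.03e-05). Atp5a1, the alpha subunit, was at 649, 882 and 1340 CPM in lymphoma and 344, 233 and 247 CPM in CD4, a log2 fold change of 1.75 (SE 0.244, adjusted p = 0.000128). Atp5e, the epsilon subunit, had the smallest rise of the 5, 0.67 (SE 0.249, adjusted p = 0.0434).

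Atp5g1, Atp5g2 and Atp5g3 encode the same mature c subunit of the membrane ring from separate genes, and all 3 rose. Atp5g3 was at 992, 1133 and 1868 CPM in the lowest, median and highest lymphoma and at 408, 240 and 244 CPM in CD4 (log2 fold change 2.05, SE 0.266, adjusted p = 7.68e-05). Atp5g1 was at 42.1, 59.7 and 94.1 CPM in lymphoma and 20.9, 7.08 and 11.7 CPM in CD4 (log2 fold change 2.28, SE 0.366, adjusted p = 0.000359). Neither gene overlapped between the groups. Atp5g2 was at 51.7, 77.7 and 128 CPM in lymphoma and 55.1, 22.8 and 21.6 CPM in CD4, so that lymphoma 53 lay below CD4 1 (log2 fold change 1.34, SE 0.352, adjusted p = 0.00874). Without CD4 1, the log2 fold change of Atp5g2 was 1.93. Differences between the 3 genes' fold changes were not tested.

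The ATP synthase names that did not pass the test were Atp5s and Atp5sl. Atp5s was at 7.20 to 12.9 CPM in lymphoma and 2.0, 5.52 and 6.15 CPM in CD4, and its log2 fold change was 0.94 (adjusted p = 0.0775). Atp5sl was at 24.9 to 39.1 CPM in lymphoma and 45.9, 40.3 and 46.7 CPM in CD4, and its log2 fold change was -0.41 (SE 0.177, adjusted p = 0.0743). Atp5sl was the only 1 of the 87 nuclear genes in which all 6 lymphomas lay below all 3 CD4 libraries, which 22.3% of all tested genes did.

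The 7 assembly factors help build complex I and are not part of it. Of these 5 rose, with Ndufaf6 (2.04, SE 0.347, adjusted p = 0.000544) and Ndufaf7 (1.71, SE 0.245, adjusted p = 0.000160) the most in log2 fold change. Ndufaf6 was at 17.5, 24.6 and 43.3 CPM in the lowest, median and highest lymphoma and 5.92, 5.64 and 7.71 CPM in CD4, and the groups did not overlap. Ndufaf3 (-0.37, adjusted p = 0.242) and Ndufaf5 (0.57, adjusted p = 0.0818) missed the threshold.

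**Figure D4:**
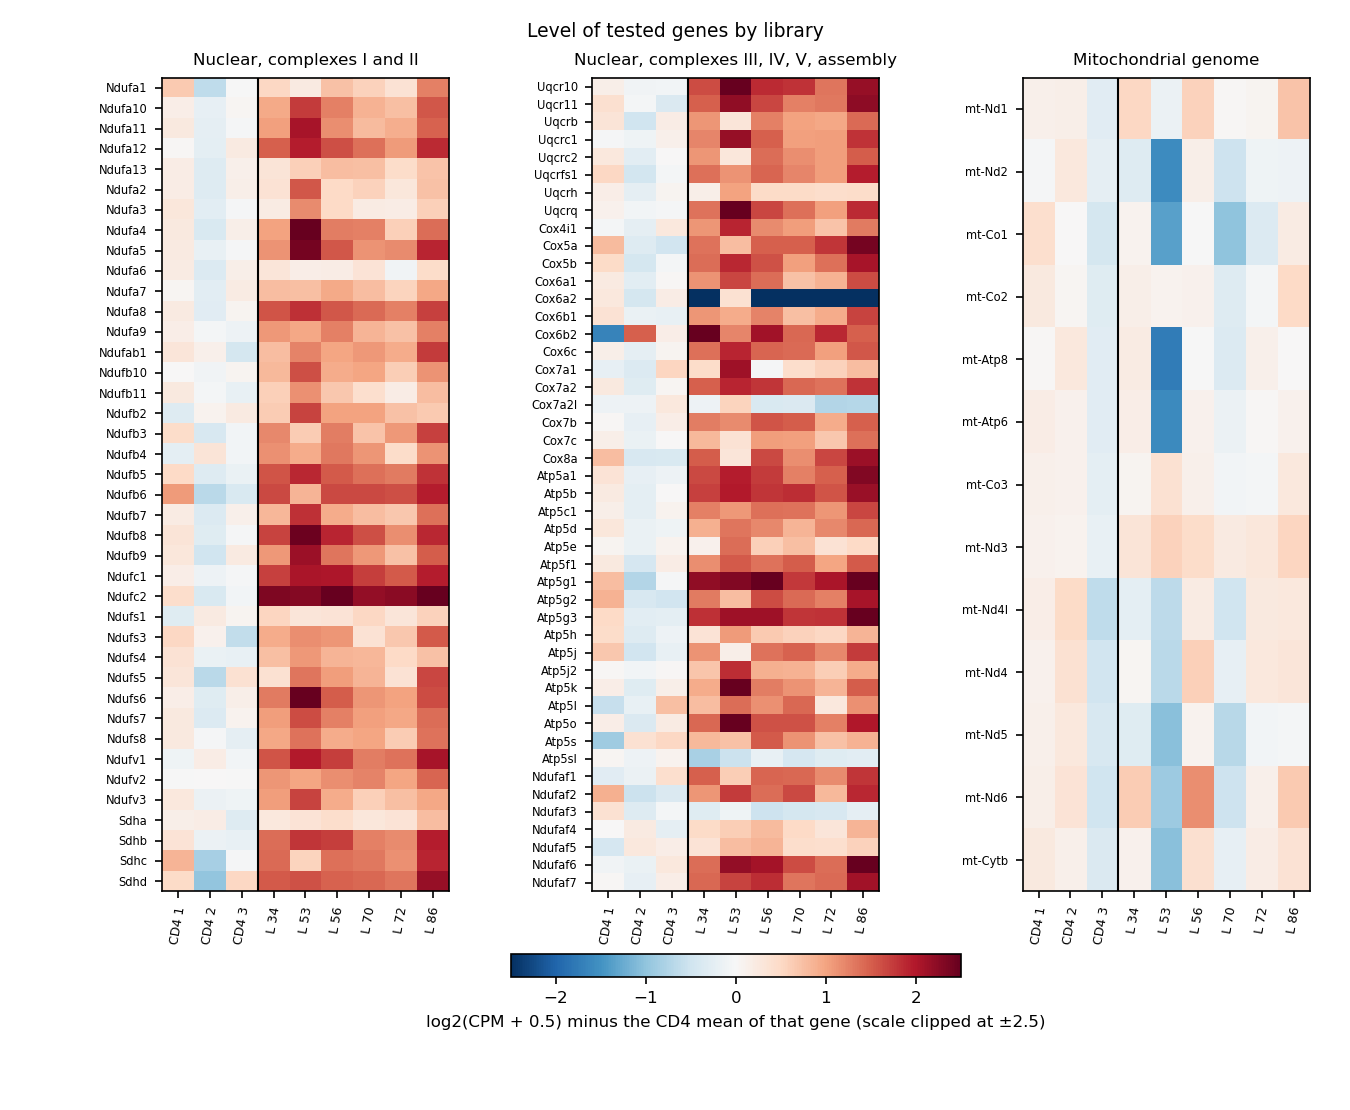
Log2 of CPM plus 0.5 for tested nuclear and mitochondrial genes in each of the 9 libraries, minus the gene's CD4 mean, with red above and blue below it and the colours clipped at 2.5. Most nuclear rows are above the CD4 mean in all 6 lymphomas, and lymphomas 53 and 86 hold the highest lymphoma value in 39 genes each.

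Promoter sequences were read for the nuclear genes because nuclear respiratory factor 1 (NRF1) is a known activator of many of them. RefSeq windows on GRCm38.p6 from 250 bases before to 50 after the start were matched for 74 of the 87 tested nuclear genes and for 9891 of all tested genes. The NRF1 motif (GCGCA, any base, GCGC), searched on both strands, was found for 19 of the 74 genes (25.7%) and for 11.5% of all 9891. A gene with several RefSeq starts counted once, where any of its windows held the motif. The motif was found for 15 of 62 nuclear genes that rose (24.2%) and for 4 of 12 that did not pass the test. Of all 2819 tested genes with a window that rose, 14.2% held it. The following 70-base stretches show 1 gene of each complex that had a match before its start with full flanks, and Sdha, which did not pass the test, in lower case with the motif or its reverse complement in capitals.
Ndufa5: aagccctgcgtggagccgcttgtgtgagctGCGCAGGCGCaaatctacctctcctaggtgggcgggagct
Sdhd: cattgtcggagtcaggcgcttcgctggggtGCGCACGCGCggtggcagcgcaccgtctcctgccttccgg
Cox6a1: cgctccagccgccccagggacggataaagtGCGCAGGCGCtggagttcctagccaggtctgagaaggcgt
Atp5k: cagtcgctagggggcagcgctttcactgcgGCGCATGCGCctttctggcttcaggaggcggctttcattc
Ndufaf4: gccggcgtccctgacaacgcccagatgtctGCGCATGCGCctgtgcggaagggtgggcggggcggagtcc
Sdha: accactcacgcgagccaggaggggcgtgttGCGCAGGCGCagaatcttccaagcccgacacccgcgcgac
The stretches lie, on GRCm38.p6, at chr6:24527677-24527746 (Ndufa5, minus strand), chr9:50603889-50603958 (Sdhd, minus), chr5:115349036-115349105 (Cox6a1, minus), chr5:108434410-108434479 (Atp5k, minus), chr4:24897940-24898009 (Ndufaf4, plus) and chr13:74350256-74350325 (Sdha, minus). The motif begins 190, 79, 117, 50, 113 and 55 bases before the RefSeq start in that order. For Ndufa5 this counts from 1 of its listed starts. By the GENCODE gene bounds, the Ndufa5 stretch lies wholly inside the gene and the Atp5k motif nearly all inside it. Complex III gave no such stretch.

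Other motifs were searched the same way. The E-box CACGTG, which MYC family proteins bind, was found for 9.46% of the 74 genes and 11.5% of all genes with a window. The ETS motif CCGGAAGT was in 6.76% and 9.24%, and the YY1 motif AAGATGGC was in 14.9% and 5.28%. A match is a run of letters and not a shown binding site, and a window without a match says nothing of the factor.

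The mitochondrial genes lie on chromosome M, 12 on the plus strand and mt-Nd6 on the minus strand. They are transcribed as long precursors, which are cut mostly at the transfer RNAs that lie between many, but not all, of them. Several share bases: mt-Atp8 and mt-Atp6 overlap by 43 bases, mt-Nd4l and mt-Nd4 by 7, mt-Atp6 and mt-Co3 by 1, and mt-Nd5 and mt-Nd6 by 14 on opposite strands. The strand setting of the counting is not stated, so reads in such overlaps are uncertain, those of mt-Nd5 and mt-Nd6 included.

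Among the 7 mitochondrial complex I genes, mt-Nd3 (chromosome M, plus strand) was at 1047, 1243, 1152, 975, 1022 and 1214 CPM in lymphomas 34, 53, 56, 70, 72 and 86 and at 901, 887 and 732 CPM in CD4. The groups did not overlap, and lymphoma 70 lay nearest to CD4. The log2 fold change was 0.40 (SE 0.143, adjusted p = 0.0369), and the call was lost with RLE or upper quartile scaling, with no filter or with at least 10 counts required in every library, and without CD4 2 or CD4 3. mt-Nd1 was at 6906, 9512 and 12527 CPM in the lowest, median and highest lymphoma and at 8364, 8550 and 6343 CPM in CD4 (log2 fold change 0.31, SE 0.213, adjusted p = 0.251). mt-Nd4, the mitochondrial complex I gene next to mt-Nd4l, was at 11155, 19825 and 26850 CPM in lymphoma and 19078, 23011 and 12710 CPM in CD4 (log2 fold change 0.07, SE 0.263, adjusted p = 0.852). mt-Nd2, mt-Nd4l, mt-Nd5 and mt-Nd6 had log2 fold changes of -0.34, -0.14, -0.32 and 0.31 with adjusted p from 0.313 to 0.715, and their groups overlapped.

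In complex III, mt-Cytb, the cytochrome b subunit, was at 4611, 10541 and 12605 CPM in the lowest, median and highest lymphoma and 11215, 10374 and 7430 CPM in CD4, a log2 fold change of 0.02 (SE 0.274, adjusted p = 0.966). The CD4 libraries fell within the lymphoma range. In complex IV, mt-Co1, the catalytic subunit, was at 1254, 2839 and 3664 CPM in lymphoma and 4269, 3243 and 2366 CPM in CD4 (log2 fold change -0.34, SE 0.326, adjusted p = 0.418). mt-Co2 and mt-Co3 had log2 fold changes of 0.08 and 0.12 with adjusted p of 0.758 and 0.563.

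In ATP synthase, mt-Atp6 was at 5617, 1672, 5399, 4577, 5108 and 5388 CPM in lymphomas 34, 53, 56, 70, 72 and 86 and 5687, 5412 and 4141 CPM in CD4. Lymphoma 53 was far below the others, and without it the log2 fold change moved from -0.13 (SE 0.307, adjusted p = 0.751) to 0.03. mt-Atp8 followed, at 36.8 CPM in lymphoma 53 against 97.3 to 144 CPM in the other 5, with a log2 fold change of -0.19 (adjusted p = 0.684).

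**Figure D5:**
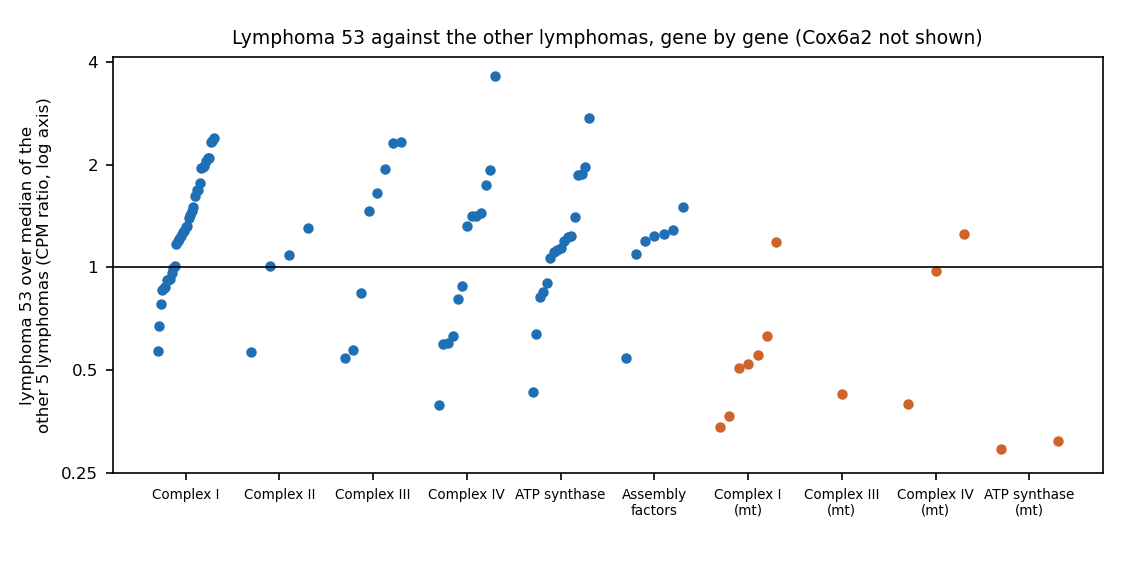
Ratio of lymphoma 53 to the median of the other 5 lymphomas for each gene, by complex and genome, on a log axis, with Cox6a2 not shown. The median ratio is 1.24 over the nuclear genes and 0.509 over the mitochondrial genes.

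The 2 genomes parted most in lymphoma 53. Against the median of the other 5 lymphomas it stood at 1.24 in the median nuclear gene and 0.509 in the median mitochondrial gene. It was above all other lymphomas in 39 of 87 nuclear genes and below all in 15, and below all in 10 of 13 mitochondrial genes and above all in 2 (mt-Co3 and mt-Nd3). The lowest ratios were in mt-Atp8 (0.295), mt-Atp6 (0.310) and mt-Nd6 (0.342), and Cox8a was the lowest nuclear one named at 0.396. Leaving out Cox6a2, the highest were Cox7a1 (3.64), Atp5k (2.74), Ndufs6 (2.39) and Ndufa4 (2.34). Lymphoma 53 also had the fewest gene counts of the lymphomas, 11170704, and the most unaligned reads, 18.8%, and the part of either was not tested. Among CD4 libraries, CD4 1 was highest in 59 of the 87 nuclear genes and CD4 2 lowest in 63, and CD4 3 was lowest in all 13 mitochondrial genes.

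The mitochondrial ribosomal RNAs were chosen for naming after their values were seen, and their difference from the protein-coding genes of the same genome was not tested. mt-Rnr2, the large ribosomal RNA, was at 28396, 9809, 31489, 23998, 24774 and 29082 CPM in lymphomas 34 to 86 in that order and at 37192, 54275 and 48868 CPM in CD4. Every lymphoma lay below every CD4 library, and the log2 fold change was -0.93 (SE 0.288, adjusted p = 0.0199). The call was lost without CD4 2 (-0.80, adjusted p = 0.0903), without CD4 3 (-0.89, adjusted p = 0.0670) and with lymphomas 34, 70 and 72 averaged. mt-Rnr1, the small one, had a log2 fold change of -0.61 (SE 0.407, adjusted p = 0.25) over all libraries, and without lymphoma 53 it was -0.40 with an adjusted p of 0.0348. The summed mitochondrial transfer RNA genes were at 1227 ± 350 CPM (SD, n = 6) and 1194 ± 346 CPM (SD, n = 3).

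Genes that serve oxidative phosphorylation outside the subunits were examined as 5 lists, in which calls again come from the test over all genes. Their counts are set beside the 24.7% of all tested genes that rose and the 21.9% that fell, and beside the 39.1% and 22.4% among genes with an average log2 CPM of at least 5. In the tricarboxylic acid cycle, 13 of 15 genes rose and none fell, with a median log2 fold change of 1.17. None was lower at an unadjusted p under 0.05, by DESeq2 or by limma voom either. The largest rise there was in Idh2, a mitochondrial isocitrate dehydrogenase, at 38.5 to 158 CPM in lymphoma and 26.0 to 34.7 CPM in CD4 (1.90, SE 0.387, adjusted p = 0.00189). Of 18 genes for electron carriers and coenzyme Q synthesis, 11 rose and 1 fell, with a median of 0.71. Coq7, a hydroxylase of coenzyme Q synthesis, rose by 2.66 (SE 0.283, adjusted p = 1.82e-05), and cytochrome c (Cycs) and cytochrome c1 (Cyc1), a complex III subunit outside the name pattern, rose by 2.18 and 1.58. Coq10b, which binds coenzyme Q, fell by 2.65 (SE 0.531, adjusted p = 0.00171), with 12.1 to 57.3 CPM in CD4 against 2.16 to 8.58 CPM in lymphoma. CD4 3 held the highest value, and without it the log2 fold change of Coq10b was -1.61 (adjusted p = 0.0285).

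Of 41 tested assembly factors outside the pattern, 18 rose and 1 fell, with a median log2 fold change of 0.53. The share that rose was 43.9%, against 24.7% of all tested genes and 39.1% of those with an average log2 CPM of at least 5. The list holds genes on both sides of that level. The largest rise was in Fastkd3, a mitochondrial RNA-binding protein (1.39, SE 0.255, adjusted p = 0.000901), and the fall was in Tmem126b, a complex I assembly factor (-1.47, SE 0.304, adjusted p = 0.00195). Of 31 genes for mitochondrial DNA upkeep, transcription and RNA processing, 14 rose and 1 fell, with a median of 0.79. Their share that rose was 45.2%, against the same 24.7% and 39.1%, and they too lie on both sides of that level. Mgme1, a mitochondrial DNA exonuclease, rose by 2.30 (SE 0.372, adjusted p = 0.000375), and Mterf3, a repressor of mitochondrial transcription, fell by 1.33 (SE 0.328, adjusted p = 0.00585). Tfam, which packages mitochondrial DNA and starts its transcription, rose by 0.79 (adjusted p = 0.0110), and Lrpprc, which stabilises mitochondrial messenger RNAs, rose by 1.84 (adjusted p = 0.000174). Polrmt, the mitochondrial RNA polymerase, had a log2 fold change of 0.18 (adjusted p = 0.600).

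Of 12 tested regulators of respiratory gene expression, 2 rose and 2 fell, with a median log2 fold change of 0.17. The share in each direction was 16.7%, against 24.7% of all tested genes that rose and 21.9% that fell. Among genes with an average log2 CPM of at least 5, these were 39.1% and 22.4%. Whether 12 genes differ from these shares was not tested. Pprc1, a coactivator of the PGC-1 family, was at 49.6 to 116 CPM in lymphoma and 21.9 to 26.5 CPM in CD4 (1.5, SE 0.277, adjusted p = 0.000913), and Hcfc1 rose by 1.19. Tfe3, a factor for lysosomal and mitochondrial genes, was at 2.46 to 11.0 CPM in lymphoma and 28.3 to 42.5 CPM in CD4 (-2.44, SE 0.378, adjusted p = 0.000281), and Hif1a, the oxygen-regulated factor, fell by 0.68 (adjusted p = 0.0355). Nrf1 itself had a log2 fold change of -0.10 (adjusted p = 0.726) and Gabpa, the ETS factor also called NRF2, of 0.55 (adjusted p = 0.0559).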

How the data were processed

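The deposited table holds raw read counts per Ensembl gene and library, per the file headers, in 9 columns and 46078 gene rows. Its 5 summary rows, for reads not assigned to a gene, stayed out of library sizes and tests. They hold reads in no gene, ambiguous between genes, of low alignment quality, not aligned, or aligned to several places. The submitters' processing notes name FastQC, HISAT2, SAMtools and HTSeq and the builds mm10 and GRCm38, with no versions; the strand setting is not given in the sources used here. Reads aligned to several places are in a summary row (17.8% ± 0.937 of reads in lymphoma, 12.8% ± 1.21 in CD4), so near-identical copies may be undercounted.

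The test was edgeR's quasi-likelihood test (version 4.0.16, R version 4.3.3; filterByExpr with a minimum count of 10, TMM, robust glmQLFit, glmQLFTest, all 9 libraries, no covariate), with Benjamini-Hochberg adjustment over 15401 genes and a threshold of 0.05. DESeq2 1.42.0 and limma 3.58.1 (voom) were alternatives. CPM is per 1000000 of the TMM-scaled library size. The SE of a log2 fold change was derived from edgeR's test, as its absolute value divided by the square root of the F statistic. The procedure was also run on simulated counts in which a small part of the genes changed, evenly up and down. Here 46.6% of tested genes changed, so that run does not check error rates in such data.

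The genes and lists were chosen with earlier results of these data known. Named genes are all 13 mitochondrial ones, the Sdh genes, the paralogue sets, the 2 called genes with the largest rise and fall in each complex, and the called extremes of the 5 other lists. Others named were chosen after their values were seen. Of the 106 genes, 105 matched the annotation. The 6 untested nuclear genes were Cox4i2, Cox7b2, Cox8b, Cox8c and a second Uqcrc1 row, at 0 counts throughout, and Ndufa4l2, with 0 to 8 counts in the lymphomas and 0 in CD4. Results for some genes are not reported here.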

Additional observations from a re-analysis of the deposited data

Results flagged for a closer look

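In groups of 6 lymphomas, 70 values of named genes and summed levels were examined for a library set apart from the rest, taking the gap to the nearest library over the whole range against Dixon's critical value. Of these, 13 passed, where chance would give about 3.5 for normally spread values, and 9 of the 13 were in lymphoma 53. The values are not independent, since the sums hold named genes, so 13 against 3.5 was not tested as an excess.

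In lymphoma 53, mt-Atp6 was at 1672 CPM against 4577 to 5617 in the others, the sum of mitochondrial ATP synthase genes at 1709 against 4675 to 5760, and mt-Rnr2 at 9809 against 23998 to 31489. In the same library Cox6a2 was at 16.44 CPM against 0 to 0.433, Cox7a1 at 8.22 against 1.46 to 2.89, Cox7a2l at 139.8 against 56.4 to 86.7, Ndufa4 at 309.1 against 82.9 to 144.8, Uqcr10 at 768.5 against 240.6 to 429.6 and Pprc1 at 116.2 against 49.6 to 71.7. The values thus lay on both sides, with mitochondrial-genome transcripts low and these nuclear ones high.

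In lymphoma 86, Atp5g3 was at 1868 CPM against 992 to 1249, Sdha at 289.6 against 203.3 to 231.2 and Sdhd at 47.0 against 25.8 to 31.1. Cox6b2 was at 18.8 CPM in lymphoma 34 against 3.20 to 6.33 in the others.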

How the results depend on the processing

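No paired analysis was possible because the replicate numbers of the groups do not overlap. Nuclear genes called higher numbered 73, with 59 to 74 under other settings and 62 to 74 with a library left out, and their median log2 fold change stayed between 1.12 and 1.37. Nuclear genes called lower numbered 0, but 1 (Atp5sl) with RLE, upper quartile or no scaling factors, with at least 10 counts in every library and with DESeq2, 1 (Cox6a2) with limma voom, and 0 to 2 with a library left out (2, Cox6a2 and Cox7a2l, without lymphoma 53). Mitochondrial genes called higher numbered 1, but 0 with RLE or upper quartile scaling, with no filter, with at least 10 counts and at an adjusted p under 0.01, and 0 to 1 with a library left out. The 5 other lists had 58 genes higher (41 to 59, and 45 to 66 with a library left out) and 5 lower (4 to 7). Mitochondrial log2 fold changes near 0, none of them called, changed sign: mt-Nd4 with upper quartile scaling (-0.035) and with a library left out (-0.125 to 0.277), mt-Nd4l with a library left out (-0.382 to 0.121), mt-Co2 with upper quartile scaling (-0.026) and with a library left out (-0.046 to 0.223) and mt-Atp6 with a library left out (-0.252 to 0.034). mt-Cytb changed sign with RLE (-0.042), upper quartile (-0.084), library size alone (-0.030), at least 10 counts (-0.047), DESeq2 (-0.042), limma voom (-0.031) and with a library left out (-0.131 to 0.158). The cause was not tested. Of 30 called genes, those named by the stated rules and mt-Rnr2, 0 changed direction in any setting run. Other called genes named in the text, such as Ndufv1 and Atp5b, were not among the 30. With lymphomas 34, 70 and 72 averaged into 1 library, 74 nuclear genes and 1 mitochondrial gene were called higher. These 3 had Cd4 at 48.6 to 71.9 CPM, against 6.04 to 13.8 CPM in the other lymphomas. Their Hemgn was at 30.2 to 43.7 CPM, against 10.7 to 14.4 CPM. Whether these 3 are independent of each other is not given by the labels and was not tested. Depth limits calls for genes near 3 counts per library (0.184 to 0.360 CPM).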
